A study of Mus musculus with 6 samples.

Results

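The genes for the protein components of the cytosolic ribosome were followed in mouse osteoblasts in which Mark3, a serine/threonine kinase gene, was deleted with Cre. They were chosen by name: protein-coding genes of the GENCODE M21 annotation whose symbol is Rpl or Rps with a number and at most 1 of the letters a, x, l or y, plus Rpsa, Rplp0, Rplp1 and Rplp2 and without Rps27l. Of 51912 gene IDs in the count table, 79 met this rule, and the 77 with a mean of at least 1 CPM (counts per 1e6 counts) over the 6 libraries were kept. They comprise 47 genes of the large subunit and 30 of the small subunit. Rpl10l, a retrogene copy of Rpl10 known from testis, had 0 counts in every library. Rpl3l, the striated-muscle copy of Rpl3, had 2, 3 and 6 counts in WT against 2, 3 and 0 in Mark3-KO, and both were left out.

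Primary osteoblasts, the bone-forming cells, had been cultured from the skull caps (calvaria) of C57BL/6J pups aged 1 day, with loxP sites on both Mark3 alleles (Mark3 flox/flox) in all libraries. The 3 libraries of the WT group came from cells given adenovirus with GFP for 24 h, and the 3 libraries of the Mark3-KO group from cells given adenovirus with the Cre recombinase for 24 h. Both groups therefore carried the floxed alleles and an adenovirus, and the virus and the genotype differed together. Whether the replicates were separate cultures or litters, or cells of pooled pups, was not given in the sources used here, so the p-values rest on a spread among libraries that may be technical alone. RNA was extracted with Trizol and made into libraries with a TruSeq version 2 kit, which does not mark strand.

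The cytosolic ribosome translates messenger RNA in all cells. Its small subunit decodes the message and its large subunit joins amino acids, and the proteins named Rps and Rpl are bound to the ribosomal RNA of each. In mammals their messengers are abundant, carry a pyrimidine tract at the 5′ end (the TOP motif) that lets the kinase mTOR set their translation, and code for subunits that are needed in near-equal numbers. Osteoblasts export large amounts of collagen and so depend on a high rate of protein synthesis.

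Total counts per library ran from 56925883 to 71445243. Mark3 itself stood at 113, 118 and 118 CPM in WT against 47.6, 52.4 and 44.1 CPM after Cre (log2 fold change -1.27, adjusted p = 0.0153, edgeR quasi-likelihood test), lower in the group labelled as the knockout, with some transcript left. The 8 osteoblast markers, among them Col1a1 and Runx2, were detected in every library. Their summed level was 21646 to 43209 CPM in WT, against 14603 to 21524 CPM in Mark3-KO, and most of it came from Col1a1 and Col1a2, which with Alpl were lower in every Mark3-KO library. Spp1 was higher in every Mark3-KO library (1423 to 1526 CPM, against 1091 to 1272 CPM in WT), and Runx2, Sp7, Ibsp and Sparc overlapped. The 6 red blood cell markers together stayed below 1 CPM. The 5 macrophage markers, mostly Lyz2, summed to 200.3 to 226 CPM in WT, against 222 to 266 CPM in Mark3-KO. Ptprc and Adgre1 were higher in every Mark3-KO library than in every WT library, Cd68 and Csf1r were lower, and Lyz2 overlapped. The 4 chondrocyte markers, mostly Col2a1, summed to 655 to 1714 and 338 to 569 CPM, with Acan and Sox9 overlapping between groups. The 5 skeletal muscle markers summed to 6.53 to 12.1 and 1.85 to 4.22 CPM. Of these, Acta1 and Myh3 were lower in every Mark3-KO library, and Myod1, Myog and Ckm overlapped. In such bulk samples, fewer cells of a type and less RNA per cell cannot be told apart. The libraries also lay along 1 axis: a principal component with 65.5% of the variance placed WT replicate 1 (-90.2) and Mark3-KO replicate 3 (83.8) at its ends, with WT replicate 3 (-10.9) next to Mark3-KO replicate 1 (15.7). The 10% of genes with the highest transcript GC content had a median log2 ratio to the mean library that followed the same order, from 0.98 in WT replicate 1 and 0.06 in WT replicate 3 to -0.19 in Mark3-KO replicate 1 and -0.79 in Mark3-KO replicate 3. The share of counts on the mitochondrial genome was 1.05, 1.42 and 1.66% in WT against 2.07, 2.38 and 3.22% in Mark3-KO. The part of this axis in the ribosomal protein results was not tested beyond the corrections given below.

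Base composition recurs through the results, so the first 120 coding bases of 5 genes are shown, taken from the GENCODE M21 transcripts and written 5′ to 3′ with G and C in capitals and the position of the whole gene in GRCm38. The first 2 had some of the lowest levels in Mark3-KO relative to WT, and the next 2 the highest. The last is the near copy of Rpl39.
Rpl36, chr17:56613416-56614243, plus strand: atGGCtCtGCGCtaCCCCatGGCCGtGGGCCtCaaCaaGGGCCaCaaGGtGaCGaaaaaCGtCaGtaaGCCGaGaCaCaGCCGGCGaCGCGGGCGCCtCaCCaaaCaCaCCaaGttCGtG
Rps15, chr10:80292453-80294114, plus strand: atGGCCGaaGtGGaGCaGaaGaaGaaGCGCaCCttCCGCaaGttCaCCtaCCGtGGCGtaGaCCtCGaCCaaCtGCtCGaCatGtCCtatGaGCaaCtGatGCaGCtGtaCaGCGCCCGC
Rpl39, chrX:37082520-37085402, minus strand: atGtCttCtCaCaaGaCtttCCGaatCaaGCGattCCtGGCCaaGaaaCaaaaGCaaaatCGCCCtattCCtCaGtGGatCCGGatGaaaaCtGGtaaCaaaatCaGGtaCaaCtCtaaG
Rpl30, chr15:34440505-34443640, minus strand: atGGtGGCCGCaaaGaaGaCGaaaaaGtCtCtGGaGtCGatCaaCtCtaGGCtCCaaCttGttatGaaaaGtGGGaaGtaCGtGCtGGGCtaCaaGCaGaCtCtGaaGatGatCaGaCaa
Rpl39l, chr16:10170226-10174911, plus strand: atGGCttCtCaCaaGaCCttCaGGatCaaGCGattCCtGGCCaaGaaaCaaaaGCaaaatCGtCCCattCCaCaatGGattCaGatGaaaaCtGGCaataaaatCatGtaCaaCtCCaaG
In these stretches G and C made up 61.7% of the Rpl36 bases and 57.5% of the Rps15 bases. They made up 42.5% in Rpl39, 46.7% in Rpl30 and 41.7% in Rpl39l. Over the whole coding sequence the GC content of the 77 genes ran from 43.1% in Rpl39l to 61.6% in Rpl36.

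Most ribosomal protein genes had lower levels in Mark3-KO than in WT, but none passed the test. Summed over the 77 genes, they took 4.43, 3.97 and 3.56% of all counts in WT replicates 1, 2 and 3 and 3.53, 2.91 and 2.60% in Mark3-KO replicates 1, 2 and 3. Every Mark3-KO library lay below every WT library, yet WT replicate 3 and Mark3-KO replicate 1 were nearly level. The mean share was 3.99 ± 0.439% in WT, against 3.01 ± 0.476% in Mark3-KO (SD, n = 3 each), a log2 difference of -0.41 (two-sided exact permutation test, p = 0.1, the smallest that 3 against 3 libraries can give). The 95% Wilson intervals of the shares were at most 0.0101 percentage points wide, for counting error only, so depth did not limit this comparison.

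**Figure D1:**
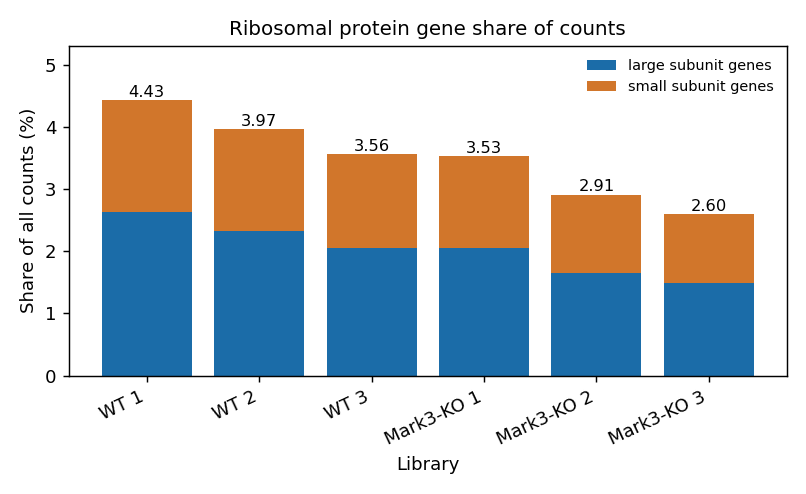
Share of all counts (%) taken by the 77 ribosomal protein genes in each library, stacked by large and small subunit genes, with the summed share printed above each bar. The share ran from 4.43% in WT replicate 1 to 2.60% in Mark3-KO replicate 3, and WT replicate 3 and Mark3-KO replicate 1 stood side by side at 3.56% and 3.53%.

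Gene by gene, 60 of the 77 had a negative log2 fold change and 17 a positive one, with a median of -0.73 against 0.02 over all 19017 tested genes. Scaling by library size alone, which moved the median of all genes to 0.13, gave a median of -0.61 and turned the sign of 3 of the 77, all of them close to 0. In 47 genes every Mark3-KO library was below every WT library (27.5% of all tested genes), in 9 every Mark3-KO library was above (25.8%), and in 21 the groups overlapped. In the edgeR quasi-likelihood fit over all genes, 0 of the 77 had an adjusted p below 0.05, where 0.216% of all tested genes did. At an unadjusted p below 0.05 there were 49 lower genes (24.8% of all tested genes) and 5 higher ones (20.8%). The smallest adjusted p was 0.0506, and 29 of the 77 lay below 0.051, where 17.0% of all tested genes did. The DESeq2 Wald test called 44 lower (21.8% of all tested genes) and 4 higher (14.5%), and limma-voom called 0 (0.142%). The edgeR count was 48 without WT replicate 3 (32.9% of all tested genes) and 53 without Mark3-KO replicate 1 (32.1%), the neighbours in the middle of the axis. It was 0 when WT replicate 1 or 2, or Mark3-KO replicate 2 or 3, was left out, where 0 to 14 of all tested genes passed. With library size alone it was 31 (23.7%). A filter of 1 CPM in 3 libraries gave 42 (37.4%). Of the 77 genes, WT replicate 1 was the highest of all 6 libraries in 55 and Mark3-KO replicate 3 the lowest in 57. The matching shares over all tested genes were not computed.

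**Figure D2:**
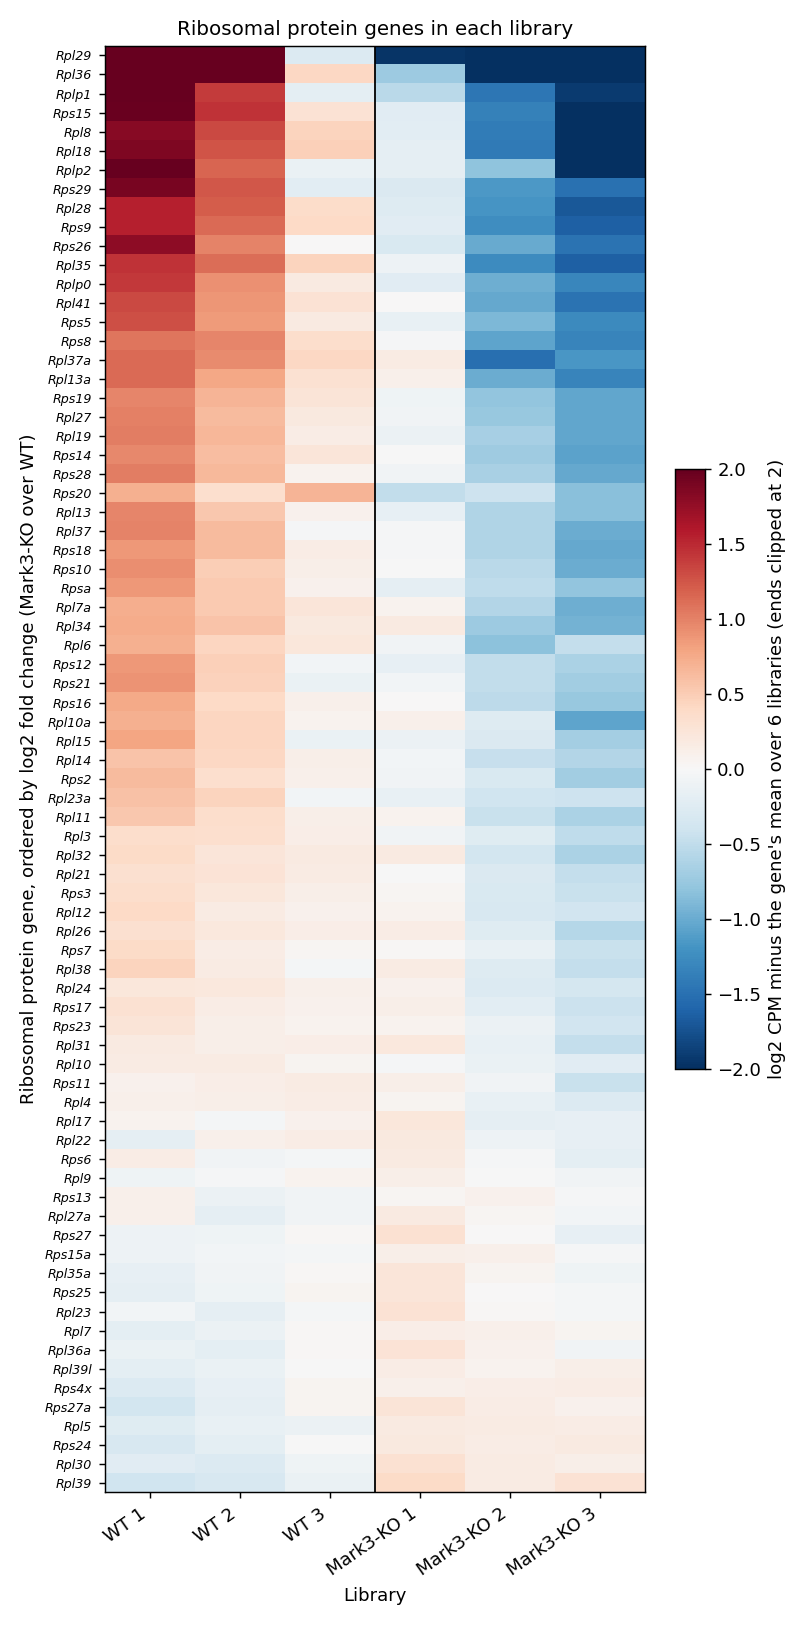
Level of 76 of the 77 ribosomal protein genes (rows) in each library (columns), as log2 CPM minus the gene's mean over the 6 libraries, with colours clipped at 2 in either direction and genes ordered by log2 fold change. The upper rows run from high in WT replicate 1 to low in Mark3-KO replicate 3, the lowest 17 rows have positive fold changes, and WT replicate 3 and Mark3-KO replicate 1 lie near the mean for most genes.

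Both subunits held genes with lower and genes with higher levels. Of the 47 large-subunit genes, 37 had a negative fold change, with a median of -0.67 and a range from -6.12 to 0.57. Of the 30 small-subunit genes, 23 did, with a median of -0.84 and a range from -2.41 to 0.34. The summed large-subunit counts were 1.45, 1.42 and 1.36 times the small-subunit counts in WT and 1.38, 1.30 and 1.32 times in Mark3-KO. The group ranges overlapped, and the log2 difference of -0.079 had p = 0.2 in the two-sided exact permutation test (n = 3 each).

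Among the large-subunit proteins, those of the stalk had some of the lowest Mark3-KO levels relative to WT. Rplp0 anchors this flexible arm, which recruits the elongation factors, and Rplp1 and Rplp2 form its dimers. Levels are given for WT replicates 1, 2 and 3 and then for Mark3-KO replicates 1, 2 and 3. Rplp1 stood at 1164, 472 and 158 CPM in WT against 124, 65.8 and 48.0 CPM after Cre, with a log2 fold change of -2.92 ± 0.75 (SE, as after each log2 fold change below). Rplp2 stood at 404, 204 and 83.0 CPM and 80.0, 51.9 and 19.5 CPM (-2.19 ± 0.69). For Rplp0 the levels were 2611, 1849 and 1105 CPM and 835, 499 and 397 CPM (-1.68 ± 0.39). In all 3, WT replicate 3 was the lowest WT library and Mark3-KO replicate 1 the highest Mark3-KO library, and the groups did not overlap, though for Rplp2 these neighbours were almost level. The adjusted p was 0.0506 for Rplp0, 0.0506 for Rplp1 and 0.0596 for Rplp2 (edgeR). Once each library's trend with transcript GC content was removed (transcript GC correction), their log2 fold changes were -1.80 for Rplp1, -1.51 for Rplp2 and -1.34 for Rplp0, and with the trend on coding GC content removed instead (coding GC correction) they were -1.95, -1.45 and -1.07. Taken as a share of all ribosomal protein counts, a measure free of the scaling between libraries, the 3 stalk genes went from 8.65, 6.13 and 3.79% in WT to 3.03, 2.22 and 1.86% in Mark3-KO. Every Mark3-KO library was below every WT library in this share, which also differed widely among the WT libraries.

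Rpl29 and Rpl36 were the lowest of all relative to WT. Rpl29, whose loss in mice gives small but viable animals, stood at 165, 93.0 and 5.98 CPM in WT against 1.86, 1.17 and 0.716 CPM after Cre, a log2 fold change of -6.12 ± 1.21 (adjusted p = 0.0506, edgeR). Rpl36, a small protein of the large subunit, stood at 197, 76.9 and 13.2 CPM and 6.01, 1.43 and 0.553 CPM (-5.15 ± 1.27, adjusted p = 0.0506). The WT libraries themselves were far apart for both, with replicate 3 at a small fraction of replicate 1: the highest was 27.5 times the lowest for Rpl29 and 14.9 times for Rpl36. Rpl8, a core protein near the peptidyl transferase centre, was more even, at 881, 625 and 341 CPM and 216, 94.4 and 63.1 CPM (-2.31 ± 0.54, adjusted p = 0.0506). With transcript and coding GC correction Rpl29 was at -4.99 and -5.24, Rpl36 at -3.71 and -4.005, and Rpl8 at -1.25 and -1.41. In 19 of the 77 genes the WT range exceeded the difference between the group means on the log2 scale, which held for 46.4% of all genes for which it could be computed.

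Rpl5 and Rpl11, which bind the 5S ribosomal RNA together and, outside the ribosome, hold back Mdm2 and so stabilise p53, had fold changes of opposite sign. Rpl5 stood at 940.4, 1002 and 1027 CPM in WT against 1261, 1249.6 and 1237 CPM after Cre, with all Mark3-KO libraries above WT and both groups tight (log2 fold change 0.34 ± 0.085, adjusted p = 0.0506, edgeR). Rpl11 stood at 570.4, 500.0 and 426 CPM and 414, 288 and 254 CPM, all below WT (-0.65 ± 0.21, adjusted p = 0.0606). The count ratio of Rpl5 to Rpl11, which no scaling between libraries can move, was 1.65, 2.003 and 2.41 in WT against 3.05, 4.34 and 4.87 in Mark3-KO. It differed between WT replicates 1 and 3 as well, in the order of the libraries' GC axis. The coding GC content is 46.0% in Rpl5 and 53.6% in Rpl11. With transcript GC correction the log2 fold change of Rpl5 turned to -0.12 and that of Rpl11 became -0.31. With coding GC correction they were -0.030 and -0.37.

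Other large-subunit genes spanned the range between. Rpl13, mutated in a human skeletal dysplasia, stood at 429, 319 and 234 CPM in WT against 196, 144 and 123 CPM after Cre (-1.09 ± 0.26, adjusted p = 0.0506, edgeR). Rpl41, which codes for the smallest ribosomal protein, had 772, 572 and 377 CPM and 312, 153 and 112 CPM (-1.58 ± 0.43, adjusted p = 0.0511). Both sets of libraries were separate between groups. With transcript and coding GC correction the fold change of Rpl13 came down to -0.10 and -0.18, and that of Rpl41 to -0.94 and -1.34. Rpl38, needed for normal patterning of the axial skeleton in mice, overlapped between groups, at 165, 136 and 119 CPM and 137, 102 and 87.5 CPM (-0.36 ± 0.20, adjusted p = 0.196). Its log2 fold change turned to 0.12 with transcript GC correction but was -0.50 with coding GC correction. Rpl10, the X-linked protein that joins the large subunit late in its assembly, differed less, at 864, 856 and 794 CPM and 757, 702 and 658 CPM (-0.25 ± 0.095).

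Small-subunit genes ranged in the same way. Rps15, a protein of the subunit's head, stood at 659.7, 457 and 205 CPM in WT against 144, 65.7 and 38.6 CPM after Cre (-2.41 ± 0.60, adjusted p = 0.0506, edgeR). Rpsa, also known as the laminin receptor, had 1691, 1329 and 990.0 CPM and 822, 653 and 538 CPM (-0.995 ± 0.24). Rps19, the gene most often mutated in Diamond-Blackfan anaemia, had 678, 552 and 413 CPM and 327, 201 and 168 CPM (-1.24 ± 0.29). None of these 3 overlapped between groups, and Rpsa and Rps19 had adjusted p-values of 0.0506 and 0.0506 (edgeR). Transcript GC correction brought Rps15 to -1.36, Rpsa to -0.11 and Rps19 to -0.27, and coding GC correction brought them to -1.49, -0.28 and -0.60. Rps6, the target of the S6 kinases, had no such pattern, at 847, 733 and 749 CPM in WT against 865, 752 and 668 CPM after Cre. The groups overlapped and the log2 fold change of -0.027 ± 0.13 turned positive with library size alone (0.087).

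A few genes had higher levels in Mark3-KO, all by modest amounts, with Rpl39 the highest. Rpl39, which lines the exit tunnel for the nascent chain, stood at 365, 388 and 439 CPM in WT against 632, 543 and 592 CPM after Cre, 1.48-fold higher (0.57 ± 0.11 on the log2 scale, unadjusted p = 0.00151, adjusted p = 0.0506, edgeR). Rpl30, a small RNA-binding protein of the large subunit, stood at 239, 231 and 264 CPM and 345, 313 and 304 CPM (0.39 ± 0.098, adjusted p = 0.0506). Rps24, another Diamond-Blackfan gene, had 808, 879 and 996 CPM and 1147, 1113 and 1137 CPM (0.34 ± 0.10, adjusted p = 0.0569). Rps27a, translated as a fusion with ubiquitin, had 404, 459 and 537 CPM and 619, 577 and 552 CPM (0.32 ± 0.13, adjusted p = 0.0944). All 4 were higher in each Mark3-KO library than in each WT library. With transcript GC correction their fold changes stayed positive, at 0.50 for Rpl39, 0.25 for Rpl30, 0.064 for Rps24 and 0.24 for Rps27a. With coding GC correction Rpl39 was at 0.16, while Rpl30, Rps24 and Rps27a turned to -0.032, -0.015 and -0.038.

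Rpl39l, the copy of Rpl39 best known from male germ cells, was also detected. Both coding sequences have 153 bases, of which 23 differ, an identity of 85.0%. Rpl39l stood at 19.3, 20.1 and 21.8 CPM in WT against 24.4, 23.0 and 23.8 CPM after Cre. All Mark3-KO libraries were above all WT libraries (0.22 ± 0.11, adjusted p = 0.159, edgeR), but the sign turned with transcript GC correction (-0.21) and coding GC correction (-0.29). The 4 male germ cell markers summed to 0.726 to 0.823 CPM in WT, against 1.11 to 1.71 CPM in Mark3-KO, and 1 of them, Tnp1, was at 0. Of the 77 genes, 4 are X-linked, namely Rpl10, Rpl36a, Rps4x and Rpl39, with log2 fold changes from -0.25 to 0.57. Rps4x is the sole Rps4 gene of the mouse, which lacks the Y-linked copy of primates. It stood at 1294, 1398 and 1615 CPM and 1676, 1707 and 1725 CPM (0.25 ± 0.11, adjusted p = 0.124), separate between groups. Its fold change was 0.16 with transcript GC correction and turned to -0.014 with coding GC correction.

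**Figure D3:**
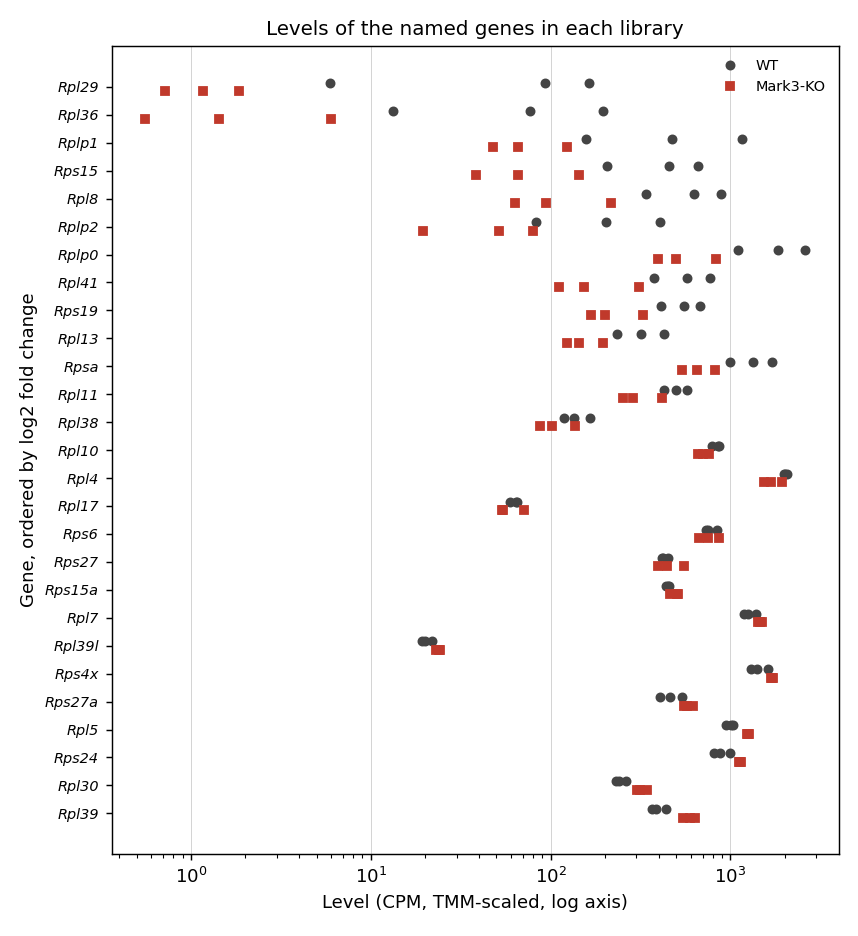
Level (CPM scaled by the trimmed mean of M-values, log axis) of 27 named ribosomal protein genes in the 3 WT libraries (circles) and the 3 Mark3-KO libraries (squares), ordered by log2 fold change. The genes at the top are spread widely within each group, Rpl29 from 165 to 5.98 CPM among the WT libraries, and those at the bottom are tight, Rpl39 from 365 to 439 CPM among the WT libraries.

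Messenger levels per length differed widely between the ribosomal protein genes. As mean CPM per kb of transcript over the 6 libraries, the median was 523. The highest were Rps4x at 1609, Rps27 at 1294, Rpl4 at 1215 and Rpl7 at 1179 CPM per kb. This order depends on the annotated transcript length. Per kb of coding sequence Rpl41 (5102), Rpl39 (3224) and Rps24 (2539 CPM) stood above Rps4x (1989 CPM). Rps27 is a zinc-binding protein of the small subunit, Rpl4 reaches into the exit tunnel, and Rpl7 is another protein of the large subunit. Their CPM levels were 414, 419.8 and 451 in WT against 551, 446 and 397 after Cre for Rps27 (0.12 ± 0.14), with overlapping groups. For Rpl4 they were 1996, 2016 and 2055 and 1932, 1681 and 1531 (-0.24 ± 0.11), and for Rpl7 1196, 1256 and 1390.4 and 1505, 1466 and 1414 (0.19 ± 0.096, turning to -0.098 with GC correction). Rpl4 was lower and Rpl7 higher in each Mark3-KO library than in each WT library, with adjusted p-values of 0.14 and 0.166 (edgeR). The sign of Rps27 turned without Mark3-KO replicate 1 (-0.026). The lowest per kb were Rpl39l at 27.4, Rpl29 at 62.7, Rpl17 at 79.1 and Rps15a at 91.5 CPM per kb. The value of Rpl29 is a mean over unlike groups, at 124 in WT and 1.76 CPM per kb in Mark3-KO. The value of Rps15a rests on an annotated transcript of 5130 bases. Per kb of coding sequence it was 1204 CPM. Rps15a stood at 437, 449 and 458 CPM in WT against 509, 505 and 459 CPM after Cre, separate between groups (0.13 ± 0.087, turning to -0.19 with GC correction).

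The low level of Rpl17 went with its copies elsewhere in the genome. Rpl17, another protein of the exit tunnel, had 63.8, 59.2 and 65.1 CPM in WT against 71.5, 53.7 and 54.4 CPM after Cre, while its 10 named pseudogenes held 937% as many counts as the gene. How reads matching both were counted was not given in the sources used here, so the level of Rpl17 and the sign of its fold change (-0.066 ± 0.14, positive with library size alone at 0.045) are uncertain. In all, 282 pseudogenes were named after 59 of the 77 genes, and in 29 of these their counts exceeded 10% of the gene's own. Rpl23a, Rpl14 and Rps12 had the next highest ratios, at 82.1%, 62.5% and 56.2%, and were singled out after their values were seen. The pseudogenes together took 0.411, 0.406 and 0.410% of counts in WT and 0.425, 0.369 and 0.338% in Mark3-KO, so their groups overlapped while those of the parent genes did not. With pseudogene counts added to their parents, the edgeR fit again called 0 of the 77 (0.216% of all tested genes in the fit without them added). Exons of 37 genes overlap another annotated gene, which libraries without strand cannot separate, and in 15 the overlap covers more than 10% of the exonic bases. Among the genes named here these are Rpl23a (62.3%), Rps12 (13.7%), Rpl5 (26.7%) and Rpl30 (24.8%).

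The fold change of a ribosomal protein gene ran with the GC content of its coding sequence. Across the 77 genes, Spearman's rho between coding GC content and log2 fold change was -0.88, against -0.76 across 18965 tested genes. This is a description across genes, which share the same 6 libraries. Transcript GC content gave -0.72 across the 77, against -0.80 across all tested genes with a value. Transcript length gave 0.08 across the 77. For coding GC content, genes without a coding sequence entered with their transcript GC content. The 26 genes with the lowest coding GC content (43.1 to 50.7%) had a median log2 fold change of 0.08, with 12 negative and 14 positive values. The middle 26 (50.8 to 54.6%) had a median of -0.74, with 23 negative, and the highest 25 (54.7 to 61.6%) a median of -1.68, with all 25 negative. GC content at the third codon position, where most changes leave the protein the same, ran from 46.4 to 87.6% and gave a rho of -0.64. Codon positions 1 and 2 together gave a rho of -0.52. The sequences printed above are examples of both ends.

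**Figure D4:**
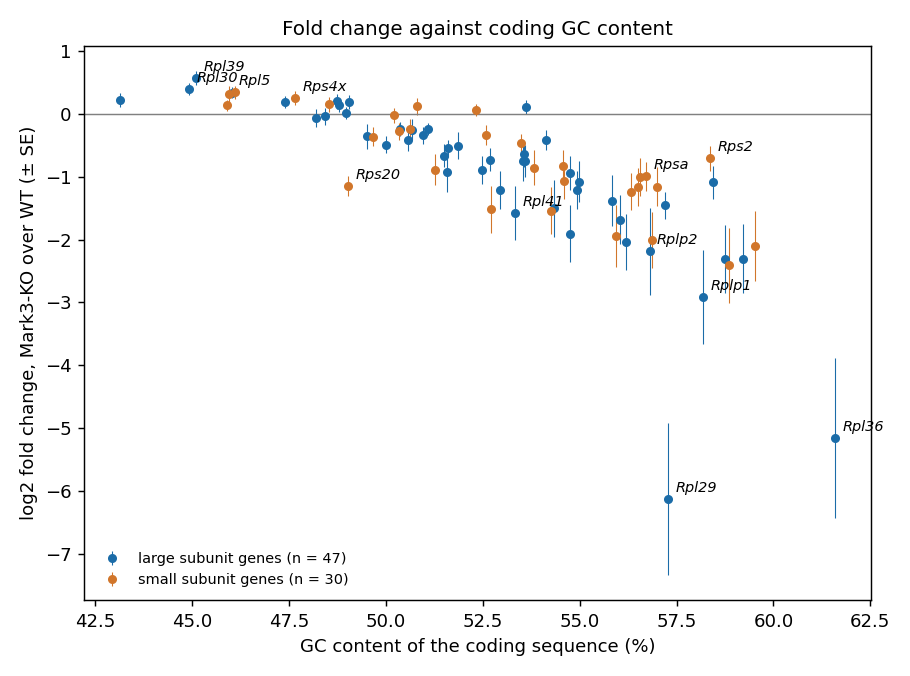
Log2 fold change of each ribosomal protein gene (Mark3-KO over WT, with its standard error) against the GC content of its coding sequence (%), for 47 large-subunit and 30 small-subunit genes. Points descend from above 0 at the left to below -2 at the right, Rpl29 and Rpl36 lie lowest, and Rps20 lies below its neighbours of like GC content.

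Fitting and removing each library's trend with transcript GC content brought the median of the 77 from -0.73 to -0.35, and the trend with coding GC content brought it to -0.46. The SD of the 77 fold changes went from 1.12 to 0.87 and 0.83. With transcript GC correction 60 genes still had a negative and 17 a positive fold change, but 16 had changed sign, 8 in each direction. With coding GC correction, which was chosen after the data were seen, 70 were negative and 7 positive. The 3 classes of coding GC content then had medians of -0.20, -0.49 and -1.06, in the same order as before. The summed GC-corrected level was 38283 ± 3532 CPM in WT, against 30109 ± 3692 CPM in Mark3-KO (SD, n = 3 each; log2 difference -0.35, two-sided exact permutation test, p = 0.1, the smallest possible).

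With each of these corrections 1 gene passed the edgeR threshold, and it was Rps20, against 0.457% of all tested genes with transcript GC correction and 0.310% with coding GC correction. Rps20, a protein of the small subunit's head (GRCm38 chr4:3831334-3835665, minus strand), stood at 716, 556 and 701 CPM in WT against 313, 329 and 246 CPM after Cre. Its WT replicate 3 was close to WT replicate 1, WT replicate 2 was the lowest of the WT libraries, and the groups were far apart. Without correction its log2 fold change was -1.15 ± 0.16 (unadjusted p = 0.00019, adjusted p = 0.0506, edgeR). It was -1.67 with transcript GC correction (adjusted p = 0.0466) and -1.32 with coding GC correction (adjusted p = 0.0381). Its representative transcript of 3706 bases has a GC content of 41.3%, below the 49.0% of its coding sequence. Rps20 was singled out after its values were seen.

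The start sites of the genes were looked at for the letters that mark this gene family. RefSeq start windows (GRCm38.p6) were at hand for 57 of the 77 genes. A run of at least 5 pyrimidines (C or T) at the annotated start was found in 22 of the 57 (38.6%), against 18.6% of 27025 genes. A run had to hold the start base or, where that was A or G, end at the base before it. The latter is the case for Rpl39l below, whose run lies just before the RefSeq start. Windows of 20 bases on either side of the start are shown for the named genes that had one, 5′ to 3′ on the gene's strand, with the run in capitals.
Rps27, chr3:90213629-90213668, minus strand: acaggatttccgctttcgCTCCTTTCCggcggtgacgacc
Rps6, chr4:86857348-86857387, minus strand: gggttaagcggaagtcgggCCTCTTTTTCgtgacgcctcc
Rps15a, chr7:118116128-118116167, minus strand: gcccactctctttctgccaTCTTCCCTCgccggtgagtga
Rplp2, chr7:141447631-141447670, plus strand: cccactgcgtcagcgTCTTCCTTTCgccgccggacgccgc
Rpl38, chr11:114668560-114668599, plus strand: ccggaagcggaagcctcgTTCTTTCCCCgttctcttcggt
Rps24, chr14:24490658-24490697, plus strand: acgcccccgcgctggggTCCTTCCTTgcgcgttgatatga
Rpl39l, chr16:10170208-10170247, plus strand: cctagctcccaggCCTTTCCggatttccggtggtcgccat
Rpl39, chrX:37085203-37085242, minus strand: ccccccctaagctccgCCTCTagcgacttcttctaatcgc
Among the genes shown, runs of 10 bases stood in Rplp2, Rpl38 and Rps6, with log2 fold changes of -2.19, -0.36 and -0.027, and runs of 9 in Rps27, Rps15a and Rps24, with 0.12, 0.13 and 0.34. The median log2 fold change was -0.74 in the 22 genes with a run and -0.71 in the 35 without. In the 300 bases around the start, on either strand, CCGGAAG (the core bound by ETS factors) was present in 42.1% of the 57 genes against 9.93% of all genes. AAGATGG (a YY1 core) was present in 15.8% against 7.28%, CTCTTTC in 29.8% against 9.28%, and TATAAA (the TATA box) in 10.5% against 15.7%. The median log2 fold changes with and without each were -0.80 and -0.46 for CCGGAAG, -0.36 and -0.74 for AAGATGG, -0.86 and -0.72 for CTCTTTC, and -0.38 and -0.75 for TATAAA. A match is only a match of letters. Of the 77 genes, 29 carry annotated small nucleolar RNAs (56 in all) within them on the same strand, and their median log2 fold change was -0.55, against -0.81 in the other 48.

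Ribosomal proteins whose symbols fall outside the rule also included some with lower and some with higher levels. Rack1, a scaffold on the small subunit, stood at 1234, 1314 and 927 CPM in WT against 789, 599 and 512 CPM after Cre (log2 fold change -0.87, adjusted p = 0.0506, edgeR). The paralogues Rpl22l1 and Rps27l were higher in each Mark3-KO library than in each WT library. Rpl22l1 had 75.4, 87.0 and 104 CPM and 131, 122 and 143 CPM (0.57, 0.033 with transcript GC correction and turning to -0.057 with coding GC correction), and Rps27l, which p53 is known to induce, had 138, 128 and 145 CPM and 175, 169.7 and 168 CPM (0.32, turning to -0.026 with GC correction). The 8 such genes had a median of -0.26. At an unadjusted p below 0.05 in edgeR, 3 were lower (24.8% of all tested genes) and 2 higher (20.8%).

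The rest of the translation machinery had medians nearer to 0. Of 201 genes tested in the 7 lists, 0 passed in edgeR or limma-voom and 83 in the DESeq2 Wald test, where 36.3% of all tested genes did. Counts at an unadjusted p below 0.05 in edgeR are given, beside the same background of 24.8% lower and 20.8% higher. Of 30 translation factors and other genes with TOP messengers, 11 were lower and 6 higher, with a median of -0.06. Eef2, the factor that moves the ribosome along the message, stood at 4129.8, 2988 and 1795 CPM in WT against 1373, 821 and 533 CPM after Cre (-1.71), and Eef1d, a subunit of the exchange factor for elongation, had a log2 fold change of -1.02. Of 40 ribosome assembly factors, 17 were lower and 10 higher (median -0.11), with Bop1, needed for large-subunit maturation, at -1.36. Of 15 genes for RNA polymerase I and its factors, 5 were lower and 3 higher (median -0.22), with Taf1c at -2.47 and Taf1d at 0.69. Of 11 host genes of small nucleolar RNAs, 1 was lower and 4 higher (median 0.15), with Snhg1 at 0.64. Of 19 regulators, 5 were lower and 7 higher (median -0.07). Among these, Eif4ebp1, which encodes a repressor of cap-dependent translation, had -1.28, the S6 kinase gene Rps6kb2 -1.11 and Rptor, which encodes the defining subunit of mTOR complex 1, -0.99. In the other direction, Larp4, which encodes a protein that binds poly(A) tails, had 0.54. With transcript GC correction Eif4ebp1 was at -1.41, Rps6kb2 at -0.36, Rptor at -0.10 and Larp4 at -0.080. It brought Eef2 to -0.75, Eef1d to -0.71, Bop1 to -0.25, Taf1c to -1.08, Taf1d to 0.17 and Snhg1 to 0.15.

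The proteins of the mitochondrial ribosome, coded by separate nuclear genes, served as the closest counterpart. Of 78, 29 were lower (24.8% of all tested genes) and 9 higher (20.8%) at an unadjusted p below 0.05 in edgeR. Their median was -0.24, against -0.73 in the cytosolic set. The DESeq2 Wald test called 21 of the 78 lower, where 21.8% of all tested genes were, and 6 higher, where 14.5% were. Mrps21 had the smallest p among them, at 30.0, 30.6 and 21.4 CPM in WT against 13.9, 11.4 and 9.86 CPM after Cre (-1.22, adjusted p = 0.0506, edgeR). Their summed share of counts was 0.192, 0.183 and 0.182% in WT, against 0.190, 0.175 and 0.167% in Mark3-KO, which overlapped between groups. The median after GC correction was -0.12, against -0.35 for the cytosolic genes. The difference between the lists was not tested.

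**Figure D5:**
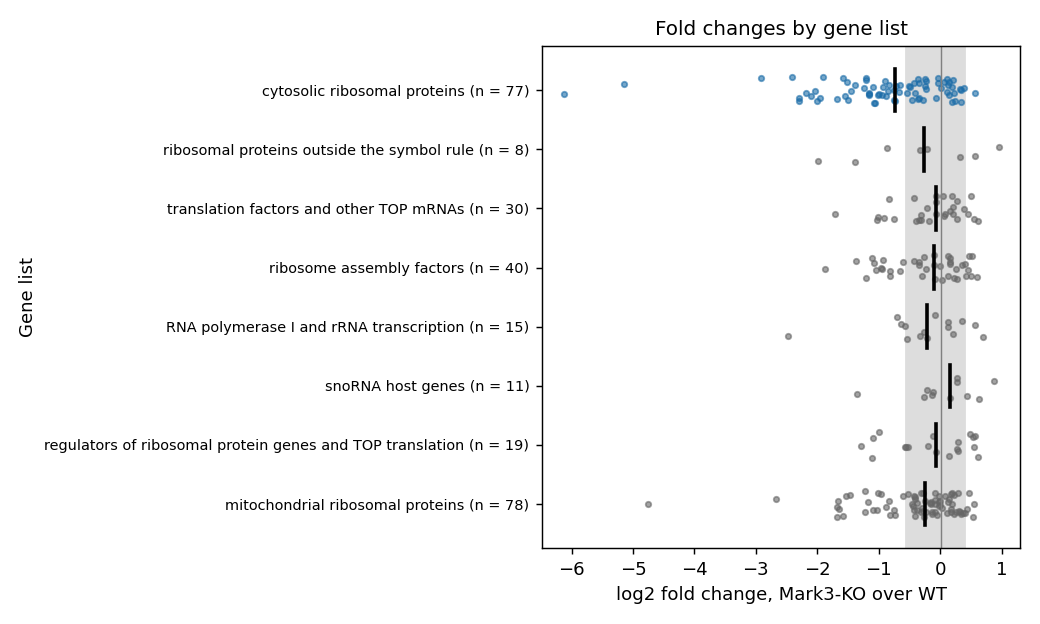
Log2 fold change (Mark3-KO over WT) of each tested gene in the cytosolic ribosomal protein set and in 7 other lists, with black bars at the medians, the grey band from the lower to the upper quartile of all tested genes and a grey line at their median. The median of the cytosolic set, -0.73, lies outside the band, and the other medians, -0.26 to 0.15, lie within it.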

How the data were processed

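The authors deposited whole-number counts per gene, in 1 table with a column for each of the 6 libraries. Per the submitters' processing notes the tools were HISAT2 2.0.5, StringTie, FastQC and DESeq2, and the genome build was GRCm38; the settings are not stated there. GENCODE M21 gave names for 51719 of 51912 gene IDs. Genes were filtered with filterByExpr and scaled by the trimmed mean of M-values (TMM), and 19017 were tested with edgeR 4.0.16 (quasi-likelihood, group as the sole term, Benjamini-Hochberg adjustment over all, threshold 0.05). CPM are TMM-scaled. DESeq2 1.42.0, limma-voom 3.58.1, other scalings and filters, each library left out, a replicate block, and GC corrections (natural splines of 6 degrees of freedom per library) were alternatives. The scripts were tested on simulated data. GC content and length came from 1 representative transcript a gene. The genes of the set, the 7 lists and the naming rule (5 lowest and 5 highest fold changes, 4 highest and 4 lowest per kb, 14 preset genes, up to 4 genes a list by p) were chosen with earlier results of these data known. Not every gene that the rule takes, and not every sequence, is reported here. Depth was 56925883 to 71445243 counts a library.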

Additional observations from a re-analysis of the deposited data

How the results depend on the processing

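Whether same-numbered replicates belong together was not given in the sources used here. The correlations of same-numbered deviations from the group means were 0.33, -0.032 and 0.29 for replicates 1, 2 and 3. Those of unlike numbers ran from -0.35 to 0.091. Replicates 1 and 3 correlated best with their own number. WT replicate 2 correlated better with Mark3-KO replicate 1 (0.061) than with its own number. The numbers also ran in the same order along the principal component in both groups. Its values were -90.2, -58.7 and -10.9 in WT replicates 1, 2 and 3, and 15.7, 60.2 and 83.8 in Mark3-KO. Same-numbered libraries at its ends could correlate without being pairs, so these correlations cannot show pairing. With the numbers as a replicate block, edgeR called 8487 genes, 58 of the 77 ribosomal protein genes and 121 list genes. The replicate block with GC correction gave 1153, 32 and 31, with a median log2 fold change of the 77 of -0.36. Many adjusted p-values lay just above 0.05, and 3235 of the 19017 tested genes had one below 0.051. Over all genes, against 41 as reported, they were 4510 with library size alone, 6894 with DESeq2, 27 with limma-voom, 5266 with the 1 CPM filter, 87 with GC correction, 83 with GC and length correction, and 0 to 6460 with 1 library left out. For the 77 they were 31, 48, 0, 42, 1 and 1 in that order. Without a filter 1 of the 77 was called (61 of 33108 over all genes), and with coding GC correction 1 (59 of 19017). With 1 library left out the counts of the 77 were 0 to 53. For the lists they were 61 with library size alone, 83 with DESeq2, 74 with the 1 CPM filter, 1 with GC and length correction and 0 to 88 with 1 library left out. The gene called without a filter, and with each GC correction lacking a block, was Rps20. The cause of these moves was not tested.

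The median of the 77 was -0.35 with GC correction, -0.36 with GC and length correction and -0.88 to -0.57 with 1 library left out. Of 1003 single-gene log2 fold changes under alternatives, 46 reversed. With library size alone the value of Rpl17 was 0.045 and that of Rps6 0.087. With GC correction, GC and length correction, and the replicate block with GC correction, in that order, the reversed values were Rpl5 -0.12, -0.16 and -0.12, Rpl7 -0.098, -0.11 and -0.10, Rpl39l -0.21, -0.21 and -0.22, Rps15a -0.19, -0.16 and -0.20, Rps6 0.012, 0.017 and 0.0099. In the same order they were Rpl38 0.12, 0.10 and 0.11, Rps27l -0.026, -0.024 and -0.027, Ubtf 0.078, 0.067 and 0.077, Snhg6 -0.055, -0.057 and -0.053, Larp4 -0.080, -0.030 and -0.081. With coding GC correction they were Rpl30 -0.032, Rps24 -0.015, Rpl5 -0.030, Rps27a -0.038, Rps4x -0.014, Rpl7 -0.087, Rpl39l -0.29, Rps15a -0.24, Rpl22l1 -0.057, Rps27l -0.044 and Snhg6 -0.13. With 1 library left out, Rps27 ran from -0.026 (without Mark3-KO replicate 1) to 0.21, and Rps6 from -0.13 to 0.053, positive without WT replicate 1 and without Mark3-KO replicate 3.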

Other observations

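Near copies of ribosomal protein genes that lie outside the symbol rule held some values of their own. Rps27rt, annotated as protein coding and close to Rps27, stood at 3.52, 3.99 and 4.84 CPM in WT and 17.2, 2.60 and 4.13 CPM in Mark3-KO, so that Mark3-KO replicate 1 alone was far above the other libraries. Its log2 fold change was 0.95 (adjusted p = 0.302, edgeR). Rps4l, a transcribed pseudogene with a transcript GC content of 61.3%, stood at 34.0, 13.5 and 5.52 CPM and 4.38, 1.43 and 0.944 CPM (-2.97, adjusted p = 0.0518), while Rps4x was higher in each Mark3-KO library. Rpl6l, a processed pseudogene, stood at 62.8, 58.6 and 69.3 CPM and 70.8, 66.0 and 79.1 CPM (0.18), while its parent Rpl6 stood at 945, 776 and 675 CPM and 550.2, 326 and 412 CPM (-0.90). These genes were chosen after their values were seen.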
